A study of Mus musculus with 24 samples.

Results

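Satellite cells sorted from mouse tibialis anterior muscle 4 days after a cardiotoxin injury were compared with satellite cells from uninjured muscle, sampled on day 0. The comparison rests on 6 of the 24 arrays of the series, 3 biological replicates of day 4 and 3 of day 0, chosen by their sample titles, which give the cell type and the day. Cardiotoxin is a snake venom toxin that lyses muscle fibres. After mincing and enzymatic digestion, satellite cells were gated by flow cytometry as negative for CD45 and CD31 and positive for alpha7 integrin, with positive or low CD34. Biotin-labelled cDNA was made for each array from 750 pg of total RNA, so every value follows an amplification. The labels used here give no strain, age or sex. Day 0 cells had no injury, and whether they had a sham injection is not stated. The other 18 arrays hold satellite cells of days 2 and 8 and endothelial cells of all 4 days, and enter here through the shared estimate of spread and 3 further comparisons.

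Satellite cells are the stem cells of skeletal muscle. At rest they lie between the fibre and its basement membrane and carry the transcription factor Pax7. After damage they enter the cell cycle as myoblasts, which express Myf5 and Myod1, and then leave it, switch on Myog and fuse into new fibres that first carry embryonic forms of the contractile proteins. Sorted cells of a regenerating muscle can therefore hold resting, dividing and differentiating cells side by side. In bulk RNA fewer cells of a kind and less RNA per cell cannot be told apart.

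All levels are log2 values, on which a difference of 1 is a doubling, and array medians lay between 4.11 and 4.40. Of 14064 genes tested, 1687 were called (12%), 918 higher on day 4 (6.53%) and 769 lower (5.47%). A call needed an adjusted p under 0.05 and a log2 difference of at least 1. The median difference over all genes tested was 0.01. Arrays of day 4 correlated with each other at 0.898 to 0.943, arrays of day 0 at 0.900 to 0.947, and arrays of different days at 0.773 to 0.826. All 3 arrays of one day lay beyond all 3 of the other for 4247 genes (30.2%), 2364 higher on day 4 (16.8%) and 1883 genes lower (13.4%). The labels used here name no batch.

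**Figure D1:**
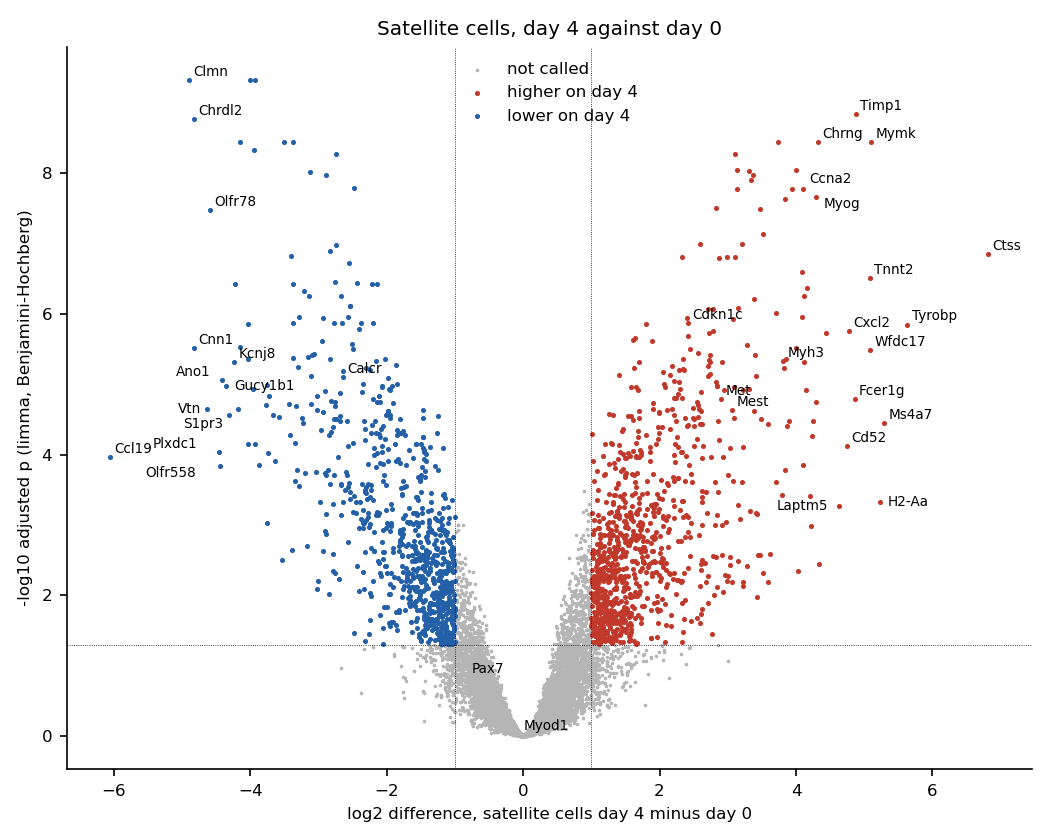
Each point is 1 of the 14064 genes tested, placed by its log2 difference, satellite cells day 4 minus day 0, and by the -log10 of its adjusted p. The 918 genes higher on day 4 are red, the 769 lower are blue, dotted lines mark the thresholds, and Pax7 and Myod1 lie among the genes not called.

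The sorted cells were checked against markers of satellite cells and of other cells. Pax7, the factor that marks satellite cells, was at 8.06, 9.00 and 8.30 on day 4, against 9.80, 8.76 and 9.28 on day 0. Itga7, the gene of the sorted integrin, was at 8.15, 8.48 and 8.38 on day 4, against 7.66, 8.77 and 8.64 on day 0. It is also on the list of pericyte and smooth muscle markers. Both genes overlapped between the days, and all 6 arrays held them well above the array medians. The mean over 35 leukocyte and macrophage markers was 8.10, 7.40 and 6.80 on day 4 replicates 1, 2 and 3, against 4.52, 4.09 and 4.25 on day 0. Of these markers 30 were higher on day 4 and 0 lower, with a median difference of 3.15. Ptprc, which encodes the CD45 that the gate excludes, was at 7.39, 6.46 and 4.74 on day 4, against 3.13, 2.97 and 2.81 on day 0 (difference 3.23, SE 0.79, adjusted p = 0.00637). All 3 day 0 values lie below the array medians, and day 4 replicate 1 held the most leukocyte transcripts. The mean over 32 endothelial markers was 7.05, 6.55 and 6.58 on day 4, against 5.82, 5.76 and 5.67 on day 0. Over 26 markers of pericytes and smooth muscle (mural cells) the mean was 6.88, 6.94 and 7.05 on day 4, against 8.67, 9.51 and 9.53 on day 0, so that these lists moved in opposite directions. Over 18 fibro-adipogenic and fibroblast markers it was 5.90, 6.00 and 6.17 on day 4, against 7.09, 7.38 and 7.11 on day 0. The part of these cells in the results below was not tested.

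**Figure D2:**
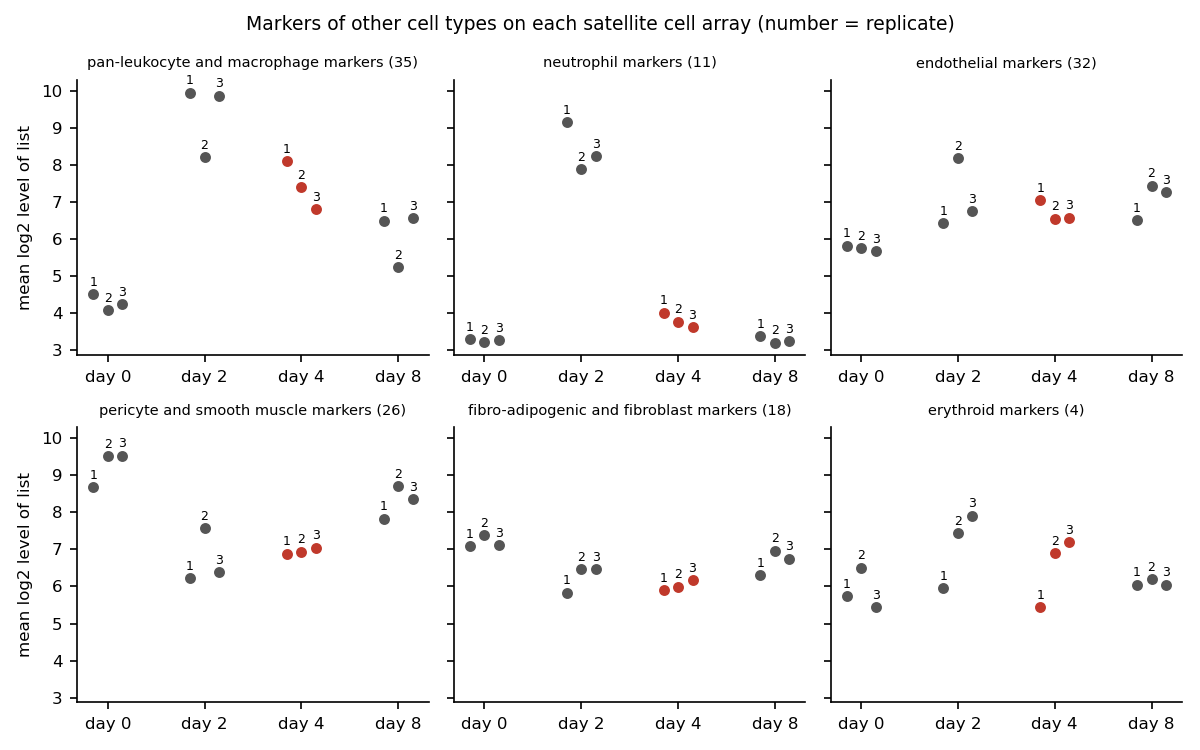
Points are satellite cell arrays, with days 0, 2, 4 and 8 on the horizontal axis and the mean log2 level of a marker list on the vertical axis, and the number beside a point is its replicate. On day 4 (red) the leukocyte list lay between 6.80 and 8.10, against 4.09 to 4.52 on day 0, while the pericyte and smooth muscle list lay between 6.88 and 7.05 on day 4, against 8.67 to 9.53 on day 0.

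Of 24 myogenic regulators tested (26 are on the array), 5 were higher on day 4 and 1 lower, with a median difference of 0.05. The share called was 25%, against 12% of all genes tested. Myog, the factor of differentiating myocytes, was at 9.72, 9.66 and 9.83 on day 4, against 5.23, 5.76 and 5.35 on day 0. The day 4 arrays were within 0.09 (SD) of each other and far above all day 0 arrays (difference 4.29, SE 0.34, adjusted p = 2.19e-08). Myod1, the factor of myoblasts, was at 7.40, 7.13 and 7.52 on day 4, against 7.52, 7.28 and 7.39 on day 0, and the days overlapped (-0.05, SE 0.29, adjusted p = 0.945). Myf5, which acts beside Myod1, overlapped as well, at 7.74, 8.78 and 9.06 on day 4, against 9.17, 8.72 and 8.95 on day 0 (-0.42, SE 0.38, adjusted p = 0.534). Pax7 differed by -0.82 (SE 0.37, adjusted p = 0.146) and was not called. Hes6, a Hes family factor that promotes differentiation, rose (1.30, SE 0.20, adjusted p = 7e-05), as did Six4, a homeobox gene (1.32, SE 0.25, adjusted p = 0.000901). Eya2, a co-activator of homeobox factors, was the 1 regulator that fell, at 3.35, 3.15 and 3.28 on day 4, against 5.15, 4.34 and 4.33 on day 0 (-1.35, SE 0.24, adjusted p = 0.000464). Its day 4 values lay below the array medians, and those of day 0 replicates 2 and 3 lay near them. The count of 5 higher regulators was 3 without day 0 replicate 2.

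Genes of cell fusion rose on day 4 in 7 of 22 cases (25 on the array) and fell in 2, with a median difference of 0.14. Of these genes 40.9% were called. Mymk encodes myomaker, the membrane protein that starts the fusion of myoblasts, and it was at 9.73, 8.71 and 9.27 on day 4, against 3.86, 4.35 and 4.21 on day 0. All day 0 arrays held it near the array medians, and the difference was 5.10 (SE 0.35, adjusted p = 3.65e-09). Mymx, the micropeptide that completes fusion, was at 6.46, 5.66 and 6.70 on day 4, against 4.46, 4.29 and 4.37 on day 0 (1.90, SE 0.26, adjusted p = 2.25e-05). The adhesion molecule Cdh2 (N-cadherin) rose 3.33-fold (1.74, SE 0.30, adjusted p = 0.000362). Cdh15 (M-cadherin), a cadherin of satellite cells and myoblasts, was at 8.25, 8.77 and 8.70 on day 4, against 7.67, 7.25 and 7.57 on day 0, a 2.11-fold rise (1.08, SE 0.26, adjusted p = 0.00535). That call was lost without day 4 replicate 2 (0.98, adjusted p = 0.0295) or day 0 replicate 2 (0.96, adjusted p = 0.0313). Boc, a cell surface receptor that promotes myogenic differentiation, fell (-1.32, SE 0.32, adjusted p = 0.00608), and so did Gsn, the actin-severing protein gelsolin, which is also on the fibroblast list (-1.37, SE 0.32, adjusted p = 0.00452).

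Of 31 developmental contractile and assembly genes (34 on the array) 12 were higher and 2 lower, with a median of 0.80. Myh3, the embryonic myosin heavy chain, was at 7.78, 5.59 and 6.21 on day 4, against 2.81, 2.80 and 2.53 on day 0. Every day 0 value was below the array medians, and the day 4 arrays spread over 2.19 log2 units around a difference of 3.81 (SE 0.45, adjusted p = 4.72e-06). Actc1, the actin of heart and embryonic muscle, was at 10.79, 10.11 and 9.52 on day 4, against 6.10, 7.15 and 5.50 on day 0, a 14.9-fold rise (3.90, SE 0.55, adjusted p = 3.34e-05). Tnnt2, a troponin T found in heart and in embryonic muscle, was at 10.66, 10.11 and 10.32 on day 4, against 6.77, 4.50 and 4.58 on day 0 (5.08, SE 0.48, adjusted p = 3.1e-07). Day 0 replicate 1 stood above the other day 0 arrays for Tnnt2 and below all day 4 arrays. Ttn, the giant spring protein titin, was at 8.89, 7.67 and 7.84 on day 4, against 4.60, 4.62 and 4.64 on day 0 (3.51, SE 0.30, adjusted p = 7.42e-08). Tnnc1, the slow and cardiac troponin C, rose by a similar amount (3.59, SE 0.51, adjusted p = 3.67e-05). The 2 that fell, named after their values were seen, were Casq2, a calsequestrin of the calcium store (-2.68, SE 0.45, adjusted p = 0.00026), and Myom1, a protein of the sarcomere midline (-1.74, SE 0.43, adjusted p = 0.0073).

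Of 17 acetylcholine receptor and synapse genes (18 on the array), 3 were higher and 1 lower (23.5% called), with a median of -0.11. The 3 were receptor subunits. Chrng, the foetal subunit that adult synapses replace, was at 9.10, 8.69 and 9.07 on day 4, against 5.17, 4.43 and 4.27 on day 0 (4.33, SE 0.30, adjusted p = 3.65e-09). Chrnd was at 7.15, 6.61 and 6.92 on day 4, against 3.76, 3.60 and 3.91 on day 0 (3.13, SE 0.25, adjusted p = 1.68e-08). Chrna1, the subunit that carries the main acetylcholine contact, was at 9.87, 9.75 and 9.95 on day 4, against 5.64, 7.51 and 7.13 on day 0, an 8.55-fold rise (3.10, SE 0.39, adjusted p = 1.1e-05). None of these genes overlapped between the days, and 16.8% of all genes tested likewise lay higher without overlap. Sntb1, a syntrophin of the dystrophin complex, fell (-1.54, SE 0.34, adjusted p = 0.00289).

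The promoters of 4 called genes are shown because all 4 rose and because myogenic factors of the Myod1 family are known to bind the E-box, CANNTG. Each is the 200 bases upstream of the start in the RefSeq windows (GRCm38.p6), read 5′ to 3′ on the gene's strand, and capitals mark each E-box and, in Klhl41, also the MEF2 motif. Klhl41, a sarcomere assembly protein chosen after its values were seen, rose by 2.63 (SE 0.40, adjusted p = 7.46e-05). The MEF2 motif marked in its window reads CTATATTTAG. The Myog window holds ctatatttat, which differs from those letters in the last base and was not marked. The lack of capitals there does not show that Myog has no MEF2 site. The windows lie at chr1:87205611-87205810 (plus strand) for Chrng, chr2:73580339-73580538 (minus strand) for Chrna1, chr1:134289804-134290003 (plus strand) for Myog and chr2:69669920-69670119 (plus strand) for Klhl41.
Chrng: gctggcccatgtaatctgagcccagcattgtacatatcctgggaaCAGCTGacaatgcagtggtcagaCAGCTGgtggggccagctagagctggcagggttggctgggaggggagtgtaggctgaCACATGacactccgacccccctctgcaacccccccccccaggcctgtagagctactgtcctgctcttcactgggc
Chrna1: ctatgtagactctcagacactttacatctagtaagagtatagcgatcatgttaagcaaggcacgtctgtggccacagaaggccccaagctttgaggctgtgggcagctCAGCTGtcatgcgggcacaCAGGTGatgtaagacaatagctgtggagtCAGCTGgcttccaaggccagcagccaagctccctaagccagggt
Myog: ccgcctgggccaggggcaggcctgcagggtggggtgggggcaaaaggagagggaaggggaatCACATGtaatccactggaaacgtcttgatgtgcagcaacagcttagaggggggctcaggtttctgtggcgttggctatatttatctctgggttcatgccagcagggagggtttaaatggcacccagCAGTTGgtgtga
Klhl41: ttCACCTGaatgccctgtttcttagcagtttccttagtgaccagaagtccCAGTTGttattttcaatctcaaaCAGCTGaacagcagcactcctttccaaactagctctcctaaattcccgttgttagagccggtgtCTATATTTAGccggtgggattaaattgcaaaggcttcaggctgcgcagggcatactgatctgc
Chrng and Chrna1 each held 2 copies of CAGCTG, an E-box core that 15.8% of all 10895 windows held at least once and 1.62% at least 2 times. Among 27 developmental contractile genes with a window, CAGCTG stood in 33.3%, any E-box in 85.2% against 64.6% of all windows, and the MEF2 motif in 18.5% against 1.69%. Of that list's 31 tested genes 12 were called higher on day 4. In windows of all genes called higher, CAGCTG stood in 19.9%, any E-box in 69.0% and the MEF2 motif in 1.56%. In those of genes called lower the shares were 18.5%, 65.8% and 3.7%. Shares count both strands over 250 bases upstream and 50 downstream, a CAGCTG is also counted as an E-box, and a match is a description of letters only.

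**Figure D3:**
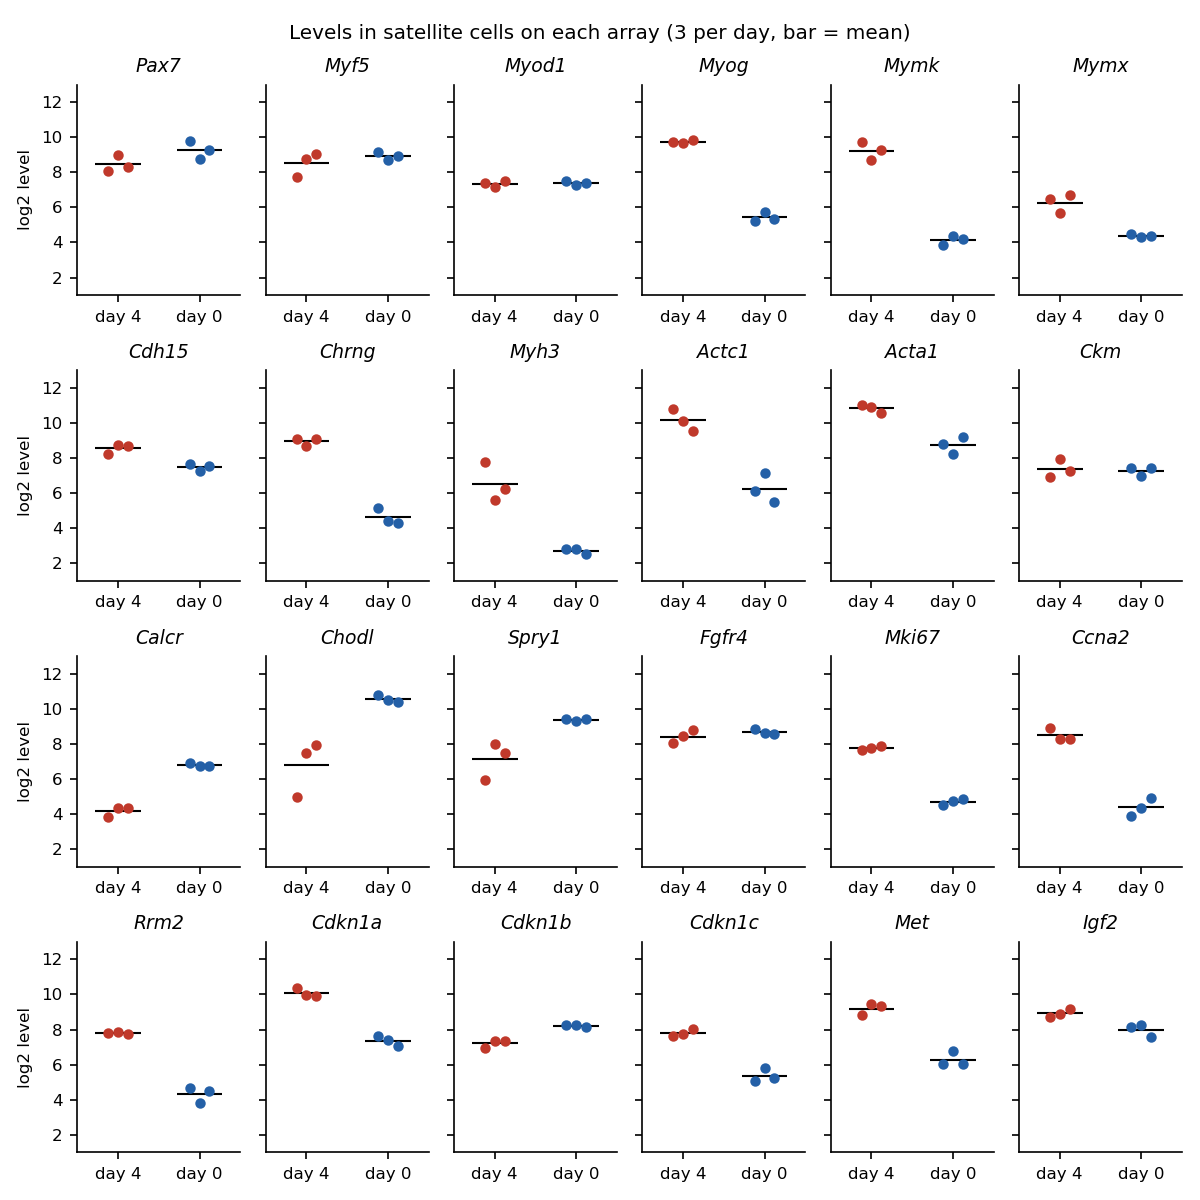
Each point is 1 satellite cell array, with the day on the horizontal axis (day 4 left of day 0) and the log2 level on the vertical axis, and bars are means of 3 arrays. The panels show 24 genes from Pax7 to Igf2, and those of Myog, Mymk, Chrng and Myh3 have no overlap between the days while Myod1 and Fgfr4 do overlap.

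Of 29 genes of adult fibres tested (30 on the array) 6 were higher and 0 lower (20.7% called), with a median of 0.37. Acta1, the skeletal actin, was at 11.03, 10.90 and 10.58 on day 4, against 8.81, 8.24 and 9.17 on day 0, a 4.28-fold rise (2.10, SE 0.47, adjusted p = 0.00344). Mylpf, the fast regulatory light chain, rose 4.82-fold (2.27, SE 0.55, adjusted p = 0.00598), and Actn3, the fast fibre alpha-actinin, 4.14-fold (2.05, SE 0.40, adjusted p = 0.00103). Ryr1, the calcium release channel, was at 5.88, 5.38 and 5.74 on day 4, against 4.35, 3.71 and 4.11 on day 0 (1.61, SE 0.23, adjusted p = 3.26e-05). Ckm, the muscle creatine kinase, was at 6.92, 7.96 and 7.28 on day 4, against 7.45, 6.95 and 7.45 on day 0 (0.11, SE 0.52, adjusted p = 0.93). Myh4, the fastest adult myosin, overlapped too (0.26, SE 0.63, adjusted p = 0.854).

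Of 36 resting genes tested (37 on the array) 14 fell and 2 rose, with a median of -0.84. Differences were positive for 7 members, the largest at 1.78, and negative for 29. The called members named below are all falls. Calcr, the calcitonin receptor that resting cells carry, was at 3.83, 4.32 and 4.33 on day 4, against 6.92, 6.75 and 6.72 on day 0 (-2.63, SE 0.33, adjusted p = 7.85e-06). Chodl, a C-type lectin of resting satellite cells, was at 4.99, 7.46 and 7.91 on day 4, against 10.80, 10.50 and 10.36 on day 0, a 13.6-fold fall (-3.76, SE 0.50, adjusted p = 1.97e-05). Spry1, an inhibitor of growth factor signalling, was at 5.93, 8.00 and 7.48 on day 4, against 9.41, 9.32 and 9.40 on day 0, a 4.73-fold fall (-2.24, SE 0.44, adjusted p = 0.000979). For both genes day 4 replicate 1, which held the most leukocyte transcripts, was the lowest array. Fgfr4, the FGF receptor of myogenic cells, was not called, at 8.02, 8.43 and 8.77 on day 4, against 8.83, 8.61 and 8.55 on day 0 (-0.25, SE 0.25, adjusted p = 0.568). Cd34, used in the gate, was not called either (-0.44, SE 0.37, adjusted p = 0.488).

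Further members of the resting list fell as well. Clmn, the actin-binding protein calmin, was at 3.17, 2.89 and 2.96 on day 4, against 7.82, 7.80 and 8.08 on day 0 (-4.89, SE 0.27, adjusted p = 4.73e-10). Tnxb, the matrix protein tenascin X, was at 3.29, 3.83 and 3.37 on day 4, against 7.63, 7.69 and 7.17 on day 0 (-4.00, SE 0.23, adjusted p = 4.79e-10). Cldn1, a tight junction protein, was at 3.73, 3.66 and 3.97 on day 4, against 8.06, 7.46 and 7.63 on day 0 (-3.93, SE 0.23, adjusted p = 4.79e-10). Day 4 levels of all 3 lie below the array medians. Chrdl2, a BMP-binding protein, fell to 4.16, 4.38 and 4.02 on day 4, against 9.67, 9.11 and 8.27 on day 0 (-4.83, SE 0.31, adjusted p = 1.72e-09). Vtn, the adhesion protein vitronectin, fell 24.9-fold (-4.64, SE 0.63, adjusted p = 2.26e-05) and belongs to the pericyte list as well, as do 3 further members of the resting list, Heyl, Itga7 and Notch3.

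Of 52 genes of mitosis and G2/M tested 48 were higher on day 4 and 0 lower, with a median of 2.06. Mki67, the proliferation marker Ki-67, was at 7.67, 7.76 and 7.85 on day 4, against 4.49, 4.73 and 4.83 on day 0 (3.08, SE 0.33, adjusted p = 1.19e-06). Ccna2, cyclin A, was at 8.89, 8.26 and 8.28 on day 4, against 3.87, 4.35 and 4.92 on day 0 (4.10, SE 0.32, adjusted p = 1.68e-08). Cdk1, the kinase that drives mitosis, was at 7.49, 7.72 and 6.66 on day 4, against 4.11, 4.14 and 3.97 on day 0 (3.22, SE 0.49, adjusted p = 7.89e-05). No day 0 array reached any day 4 array for these genes, as was so for 16.8% of all genes tested. Ube2c, the enzyme that marks mitotic cyclins for degradation, rose by 4.08 (SE 0.38, adjusted p = 2.56e-07), Top2a, a topoisomerase of dividing cells, by 3.84 (SE 0.31, adjusted p = 2.36e-08), and Ccnb2, a B-type cyclin, by 3.38 (SE 0.26, adjusted p = 1.07e-08).

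The promoters of Cdk1 and Mki67 are shown because both genes rose and because many mitotic genes share short promoter elements known from cell cycle genes. Windows are as above, at chr10:69352913-69353112 (minus strand) for Cdk1 and chr7:135716380-135716579 (minus strand) for Mki67, and capitals mark the cell cycle homology region TTTGAA and the CCAAT box on either strand, where it reads ATTGG on the opposite one.
Cdk1: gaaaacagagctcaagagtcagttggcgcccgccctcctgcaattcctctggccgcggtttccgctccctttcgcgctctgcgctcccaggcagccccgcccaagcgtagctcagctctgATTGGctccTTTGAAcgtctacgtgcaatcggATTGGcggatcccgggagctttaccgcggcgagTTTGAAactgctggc
Mki67: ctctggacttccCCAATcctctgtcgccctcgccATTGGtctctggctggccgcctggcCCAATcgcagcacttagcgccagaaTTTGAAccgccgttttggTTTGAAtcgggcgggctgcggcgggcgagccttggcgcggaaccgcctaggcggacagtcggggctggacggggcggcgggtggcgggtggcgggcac
TTTGAA on either strand stood in 76.2% of the 42 mitosis genes with a window, against 12.2% of all 10895 windows, and CCAAT in 71.4% against 38.4%. The E2F letters TTCCCGC or TTGGCGC stood in 54.8% of 42 DNA replication genes with a window, against 11.5% of all. In windows of all genes called higher on day 4, TTTGAA stood in 19.9%, CCAAT in 42.5% and the E2F letters in 12.5%. In those of genes called lower the shares were 11.8%, 36.8% and 11.6%. These motifs were counted independently, so that overlapping matches count under each.

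Of 51 DNA replication and G1/S genes tested 24 were higher and 1 lower, with a median of 1.02. Rrm2, a subunit of the enzyme that makes deoxynucleotides, was at 7.79, 7.88 and 7.73 on day 4, against 4.69, 3.82 and 4.48 on day 0 (3.47, SE 0.29, adjusted p = 3.2e-08). Its partner subunit Rrm1 rose 4.89-fold (2.29, SE 0.29, adjusted p = 9.25e-06). The helicase subunit Mcm5 was at 5.89, 5.18 and 5.56 on day 4, against 3.71, 3.93 and 4.20 on day 0 (1.60, SE 0.29, adjusted p = 0.000535). Among the further rises were the repressor E2f8 (2.74, SE 0.32), the chromatin regulator Uhrf1 (2.62, SE 0.41) and the chromatin remodeller Hells (2.71, SE 0.33). Pcna, the clamp of the polymerase, was 1.87-fold higher and below the size that a call needs (0.90, SE 0.20, adjusted p = 0.00347), and it was called without day 0 replicate 2 (1.09, adjusted p = 0.00164). Ccnd1, cyclin D1, was not called (0.40, SE 0.28, adjusted p = 0.393). The 1 member that fell, named after its value was seen, was Ccnd2, cyclin D2, at 5.33, 5.32 and 5.00 on day 4, against 6.35, 7.13 and 7.59 on day 0 (-1.80, SE 0.36, adjusted p = 0.00125).

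Of 22 genes of cycle inhibition and growth arrest 5 were higher and 2 lower, with a median of 0.08. Cdkn1a (p21), which arrests differentiating myoblasts, was at 10.34, 9.96 and 9.92 on day 4, against 7.64, 7.38 and 7.03 on day 0, a 6.6-fold rise (2.72, SE 0.32, adjusted p = 4.59e-06). Cdkn1c (p57), an imprinted inhibitor of the same family, was at 7.62, 7.74 and 8.03 on day 4, against 5.08, 5.81 and 5.23 on day 0, a 5.35-fold rise (2.42, SE 0.26, adjusted p = 1.35e-06). Cdkn1b (p27), the member linked to rest, was at 6.94, 7.37 and 7.33 on day 4, against 8.28, 8.25 and 8.13 on day 0, a 2.01-fold fall (-1.01, SE 0.23, adjusted p = 0.00443). Without day 4 replicate 1 (-0.87), day 0 replicate 1 (-0.98) or day 0 replicate 2 (-0.99) the Cdkn1b difference was under the size of a call, with adjusted p of 0.0276, 0.0166 and 0.0166. Btg2, an anti-proliferative gene, fell 2.94-fold (-1.56, SE 0.29, adjusted p = 0.000722).

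**Figure D4:**
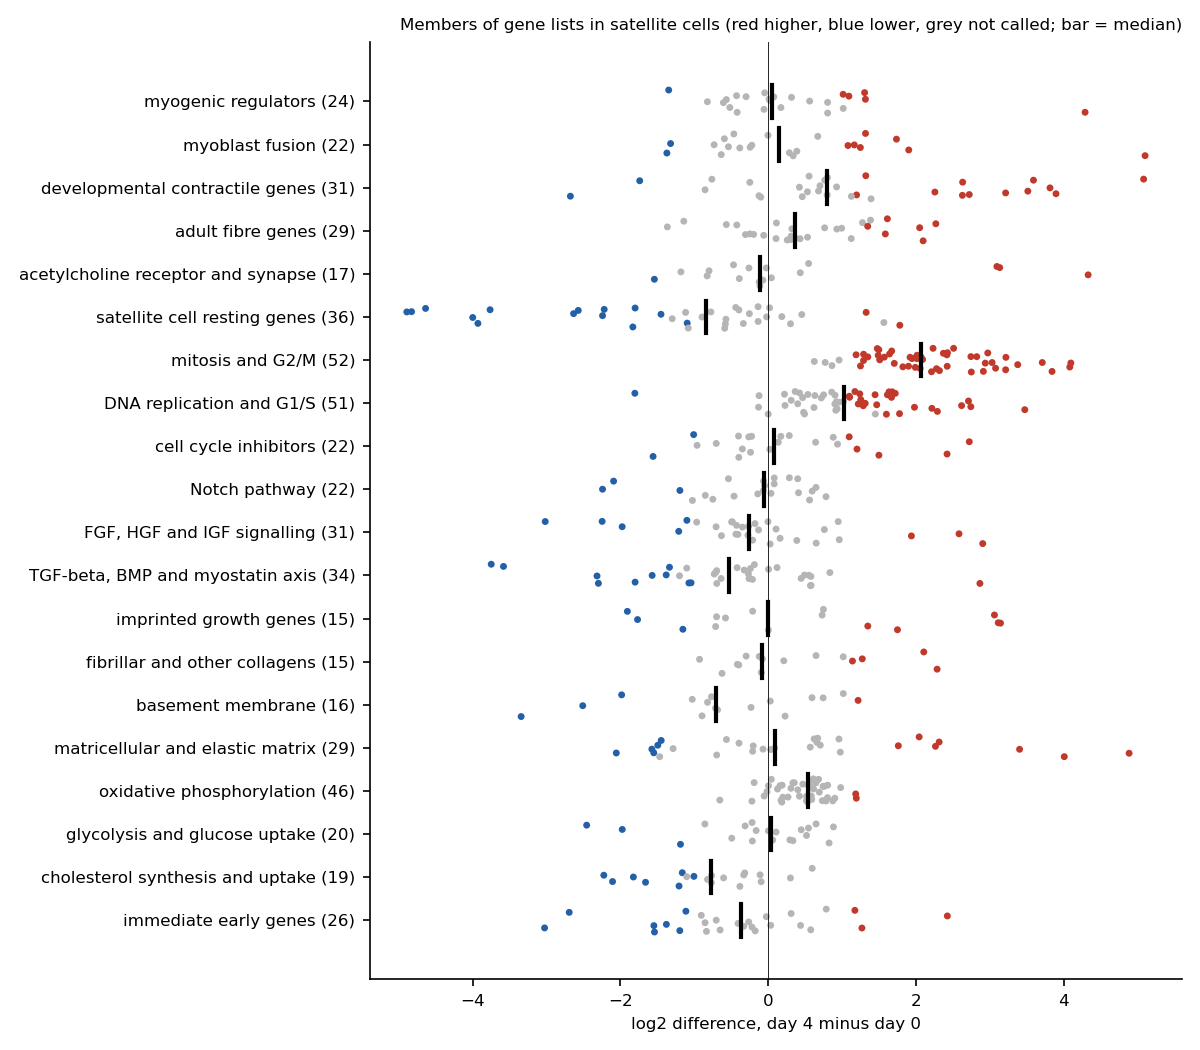
Each point is a tested gene of a list, placed by its log2 difference, satellite cells day 4 minus day 0; red points were called higher on day 4, blue lower, grey not called, the bar is the median, and the number after a list's name is its size. The mitosis list lies to the right of 0 with a median of 2.06, and the resting list mostly to the left with a median of -0.84.

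Of 22 Notch pathway genes (23 on the array) 0 were higher and 3 lower, with a median of -0.06. The 13.6% of them called was near the 12% of all genes tested. Jag1, a Notch ligand, was at 5.48, 6.51 and 6.08 on day 4, against 7.90, 8.25 and 8.20 on day 0, a 4.26-fold fall (-2.09, SE 0.33, adjusted p = 0.00013). Dtx3, a member of the Deltex family of ubiquitin ligases, fell 4.73-fold (-2.24, SE 0.40, adjusted p = 0.000395). The receptor Notch1 (0.08, SE 0.24, adjusted p = 0.879), the ligand Dll1 (0.78, SE 0.30, adjusted p = 0.0858) and the target Nrarp (-0.46, SE 0.25, adjusted p = 0.236) were not called.

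Of 31 FGF, HGF and IGF genes (35 on the array) 3 were higher and 5 lower (25.8% called), with a median of -0.27. Met, the receptor of hepatocyte growth factor, was at 8.82, 9.44 and 9.32 on day 4, against 6.02, 6.79 and 6.06 on day 0, a 7.48-fold rise (2.90, SE 0.38, adjusted p = 1.63e-05). Plaur, the urokinase receptor, was at 7.53, 6.88 and 7.70 on day 4, against 4.93, 4.99 and 4.45 on day 0 (2.58, SE 0.35, adjusted p = 2.23e-05). Igfbp6, a binding protein of insulin-like growth factors, fell 8.1-fold (-3.02, SE 0.39, adjusted p = 1.46e-05), and Gab1, an adaptor downstream of Met, fell 3.94-fold (-1.98, SE 0.27, adjusted p = 2.43e-05). Igf2, a growth factor that differentiating myoblasts secrete, was at 8.74, 8.87 and 9.18 on day 4, against 8.13, 8.24 and 7.58 on day 0, without overlap and below the size of a call (0.95, SE 0.30, adjusted p = 0.0352). It was called without day 4 replicate 1 (1.04, adjusted p = 0.0464) or day 0 replicate 2 (1.07, adjusted p = 0.0413). Igf1 was not called (0.39, SE 0.28, adjusted p = 0.404). Without any 1 of day 4 replicate 1, day 4 replicate 3 or day 0 replicate 1 the list had 3 lower members, and without day 4 replicate 1 it had 5 higher ones.

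Of 34 genes of the TGF-beta, BMP and myostatin axis (39 on the array) 1 was higher and 10 lower, with a median of -0.53. Tgfb1, the ligand TGF-beta 1, was at 8.54, 8.63 and 8.31 on day 4, against 5.86, 5.81 and 5.21 on day 0, a 7.29-fold rise (2.87, SE 0.26, adjusted p = 1.59e-07). Bmp4 was at 5.31, 6.05 and 4.60 on day 4, against 9.16, 8.85 and 8.70 on day 0 (-3.58, SE 0.50, adjusted p = 2.93e-05). Bmp5 was at 4.37, 4.79 and 5.23 on day 4, against 7.75, 9.22 and 8.67 on day 0 (-3.75, SE 0.47, adjusted p = 1.02e-05). Both BMP ligands were thus lower on every day 4 array than on any day 0 array, as were 13.4% of all genes tested. The co-receptor Tgfbr3 fell 4.98-fold (-2.32, SE 0.33, adjusted p = 4.29e-05), and the BMP antagonist Chrdl1 fell (-2.30, SE 0.28, adjusted p = 5.91e-06). Id1, a target of BMP signalling, was not called (-0.42, SE 0.41, adjusted p = 0.57). The 10 lower members were 6 without day 4 replicate 2 or without day 0 replicate 2.

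Of 15 imprinted growth genes tested (20 on the array) 5 were higher and 3 lower, with a median of 0.00. H19, a maternally expressed long noncoding RNA, was at 9.94, 9.81 and 9.90 on day 4, against 6.64, 6.58 and 7.08 on day 0, an 8.66-fold rise (3.11, SE 0.22, adjusted p = 5.37e-09). Mest, a paternally expressed gene of mesoderm, was at 11.42, 11.52 and 11.50 on day 4, against 8.23, 8.76 and 8.26 on day 0, an 8.35-fold rise (3.06, SE 0.42, adjusted p = 2.32e-05). Plagl1, an imprinted zinc finger factor, rose 8.84-fold, at 8.54, 9.64 and 9.67 on day 4, against 6.32, 6.12 and 5.98 on day 0 (3.14, SE 0.32, adjusted p = 8.3e-07). Meg3, the maternally expressed long noncoding RNA of the Dlk1 locus, was at 6.57, 6.13 and 7.68 on day 4, against 8.31, 8.79 and 9.00 on day 0, a 3.75-fold fall (-1.91, SE 0.40, adjusted p = 0.00214). Rian, a further noncoding RNA of that locus, fell as well (-1.77, SE 0.45, adjusted p = 0.00812), with overlapping arrays and a call that was lost without day 0 replicate 2 (-1.32, adjusted p = 0.0642).

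Of 29 matricellular and elastic matrix genes (32 on the array) 7 were higher and 5 lower, with a median of 0.09. The list moved both ways, with 16 positive and 13 negative differences, the lowest at -2.06. The members named below all have positive differences. Timp1, an inhibitor of matrix metalloproteinases, was at 8.13, 8.71 and 8.78 on day 4, against 3.29, 4.03 and 3.64 on day 0 (4.88, SE 0.31, adjusted p = 1.44e-09). Vcan, the proteoglycan versican, was at 7.85, 8.54 and 8.73 on day 4, against 4.76, 4.10 and 4.24 on day 0 (4.01, SE 0.46, adjusted p = 3.05e-06). Mfap4, a microfibril protein, rose by 3.40 (SE 0.39, adjusted p = 3.84e-06). Tnc, tenascin C, rose 4.8-fold (2.26, SE 0.38, adjusted p = 0.000217), and Fn1, fibronectin, 4.12-fold (2.04, SE 0.45, adjusted p = 0.00289). Lox, which cross-links collagen, rose 4.97-fold (2.31, SE 0.48, adjusted p = 0.00166). Postn, periostin, was at 9.60, 9.67 and 10.01 on day 4, against 8.44, 9.21 and 8.70 on day 0, and was not called (0.98, SE 0.43, adjusted p = 0.129). The 5 lower members were 3 without day 4 replicate 2, day 0 replicate 2 or day 0 replicate 3.

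Of 15 collagens tested (22 on the array) 4 were higher and 0 lower, with a median of -0.08. Col12a1, a collagen that lies on fibril surfaces, was at 6.38, 7.12 and 7.46 on day 4, against 4.63, 4.80 and 4.67 on day 0 (2.29, SE 0.28, adjusted p = 6.36e-06). Col1a2, a chain of collagen I, rose 4.3-fold (2.11, SE 0.36, adjusted p = 0.000248), while Col3a1 was not called (-0.42, SE 0.26, adjusted p = 0.313). The 4 higher chains were 2 without day 0 replicate 1. Of 16 basement membrane genes (20 on the array) 1 was higher and 3 lower (25% called), with a median of -0.70. Lamb2, the laminin chain of synaptic and mature basement membrane, was at 6.85, 6.42 and 5.96 on day 4, against 8.66, 9.05 and 9.05 on day 0, a 5.7-fold fall (-2.51, SE 0.28, adjusted p = 2.68e-06). Egflam, which encodes pikachurin, fell (-3.34, SE 0.56, adjusted p = 0.000236), and so did Smoc2, a calcium-binding matrix protein that is also on the fibroblast list (-1.98, SE 0.25, adjusted p = 8.02e-06).

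Of 20 matrix proteases (22 on the array) 4 were higher and 1 lower (25% called), with a median of 0.07. Mmp13, a collagenase, was at 4.39, 6.31 and 4.70 on day 4, against 2.72, 2.33 and 2.50 on day 0 (2.61, SE 0.61, adjusted p = 0.00439). Adam19, a meltrin of developing muscle, rose 3.39-fold (1.76, SE 0.36, adjusted p = 0.00148), and Adamts4, which cleaves versican, 3.53-fold (1.82, SE 0.48, adjusted p = 0.0108). Adamts12, a protease of the same family, fell 3.45-fold (-1.79, SE 0.31, adjusted p = 0.000299). The collagenase gene Mmp14 (0.25, SE 0.31, adjusted p = 0.672) and the gelatinase gene Mmp2 (-0.92, SE 0.39, adjusted p = 0.113) were not called. Of 15 integrin genes (16 on the array) 1 was higher and 3 lower (26.7% called), with a median of 0.01. Itga1, a collagen receptor chain, fell 5.91-fold (-2.56, SE 0.44, adjusted p = 0.00029), Itga8, a chain of a fibronectin receptor, fell (-2.22, SE 0.32, adjusted p = 4.96e-05), and Itgb4, the chain of hemidesmosomes, fell 3.04-fold (-1.60, SE 0.30, adjusted p = 0.00068). Itgb1, the common beta chain, was not called (-0.24, SE 0.20, adjusted p = 0.48).

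Of 19 cholesterol synthesis and uptake genes tested 0 were higher and 7 lower, with a median of -0.77. Msmo1, a sterol demethylating enzyme, was at 4.28, 5.88 and 5.35 on day 4, against 7.48, 7.43 and 7.28 on day 0 (-2.22, SE 0.38, adjusted p = 0.000266). Insig1, the sterol sensor that holds back the pathway's activator, was at 5.76, 6.27 and 6.48 on day 4, against 8.14, 7.60 and 8.25 on day 0, a 3.54-fold fall (-1.82, SE 0.38, adjusted p = 0.00196). Scd1, the desaturase that makes monounsaturated fatty acids, fell 4.31-fold (-2.11, SE 0.47, adjusted p = 0.00341). Sqle, the squalene oxidising enzyme, fell (-1.66, SE 0.41, adjusted p = 0.00622), and that call was lost without day 4 replicate 1 (-1.11, adjusted p = 0.0508). The 7 lower members were 4 without day 0 replicate 3.

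Of 46 oxidative phosphorylation genes 2 were higher and 0 lower (4.35%, against 12% of all genes tested), with a median of 0.54. Sdhd, a membrane anchor of complex II, rose 2.27-fold (1.18, SE 0.24, adjusted p = 0.00137). Cox5a, a subunit of complex IV, was at 9.31, 9.43 and 9.32 on day 4, against 8.64, 8.65 and 8.43 on day 0, without overlap and below the size of a call (0.78, SE 0.19, adjusted p = 0.00702). Atp5b, the catalytic subunit of the ATP synthase, lay further below that size (0.59, SE 0.16, adjusted p = 0.0113). Of 20 glycolysis and glucose uptake genes (23 on the array) 0 were higher and 3 lower (15%, near the 12% of all genes), with a median of 0.03. Slc2a4, the insulin-sensitive glucose transporter, was at 4.38, 5.12 and 4.18 on day 4, against 5.88, 7.21 and 7.96 on day 0 (-2.46, SE 0.44, adjusted p = 0.000463). Ldhb, the lactate dehydrogenase chain of oxidative tissue, fell 3.93-fold (-1.98, SE 0.27, adjusted p = 2.36e-05), and Slc2a1, the basal glucose transporter, fell 2.28-fold (-1.19, SE 0.23, adjusted p = 0.000999).

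Of 47 genes of Myc and ribosome biogenesis 2 were higher and 0 lower (4.26%, against 12% of all genes tested), with a median of 0.20. Myc itself was at 8.69, 9.31 and 9.50 on day 4, against 9.02, 8.57 and 8.60 on day 0 (0.44, SE 0.30, adjusted p = 0.382). Of 29 genes of endoplasmic reticulum and amino acid stress 3 were higher and 0 lower (10.3%, near the share of all genes), with a median of 0.47. They were Pdia6, a disulphide isomerase (1.44, SE 0.24, adjusted p = 0.00017), Psat1, an enzyme of serine synthesis (1.51, SE 0.33, adjusted p = 0.0024), and Mthfd2, a mitochondrial folate enzyme (1.57, SE 0.32, adjusted p = 0.0016). Atf4, the factor that drives such genes, was not called (-0.11, SE 0.15, adjusted p = 0.708). Of 26 immediate early and heat shock genes 3 were higher and 7 lower, with a median of -0.37. Jun was at 9.02, 9.82 and 9.67 on day 4, against 11.39, 11.03 and 10.73 on day 0, a 2.92-fold fall (-1.55, SE 0.26, adjusted p = 0.000207). Hspa1a, an inducible heat shock protein, fell 6.47-fold (-2.69, SE 0.65, adjusted p = 0.00585), and day 0 replicate 3 was its highest array at 11.76. Fosl1, a Fos relative of myoblasts, rose (2.42, SE 0.46, adjusted p = 0.000757). The 3 higher members were 1 without day 0 replicate 3.

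Leukocyte markers that rose, in cells gated as CD45 negative, included the following. Ctss, a lysosomal protease of antigen-presenting cells, was at 10.64, 9.95 and 9.44 on day 4, against 3.46, 3.20 and 2.92 on day 0, the largest difference among all genes whose arrays did not overlap (6.82, SE 0.62, adjusted p = 1.42e-07). Tyrobp, an adaptor of myeloid receptors, was at 9.96, 9.79 and 9.22 on day 4, against 4.94, 3.21 and 3.92 on day 0 (5.64, SE 0.61, adjusted p = 1.42e-06). Cd68, a lysosomal protein of macrophages, rose 14.4-fold (3.84, SE 0.63, adjusted p = 0.000167). Further large rises were those of Ms4a7 (5.30, SE 0.75), a membrane protein of macrophages, Fcer1g (4.86, SE 0.64), the Fc receptor gamma chain, Cd52 (4.75, SE 0.72), a leukocyte surface peptide, Laptm5 (4.63, SE 0.84), a lysosomal protein of blood cells, and, on none of the lists, Wfdc17 (5.09, SE 0.58), a secreted protein. Itgam, the CD11b chain of myeloid cells, was at 5.07, 4.54 and 5.62 on day 4, against 3.65, 3.49 and 3.37 on day 0, and was not called (1.58, SE 0.65, adjusted p = 0.109).

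Of 11 neutrophil markers tested (18 on the array) 1 was higher and 0 lower (9.09%, near the 12% of all genes), with a median of 0.34. S100a8, a calprotectin subunit, was at 5.54, 4.70 and 3.29 on day 4, against 2.30, 2.20 and 2.05 on day 0 (2.33, SE 0.57, adjusted p = 0.00614). Csf3r, the receptor that neutrophils need, was at 3.89, 3.63 and 3.29 on day 4, against 2.98, 2.78 and 3.29 on day 0, all below the array medians. None of 6 lymphocyte markers (17 on the array) was called by limma, with a median of 0.10, although 2 had an unadjusted p under 0.05. Nkg7, a granule protein of killer lymphocytes, differed by 0.14 (SE 0.43, adjusted p = 0.885). Of 12 class II presentation genes (14 on the array) 3 were higher and 0 lower, with a median of 0.95. H2-Aa, a class II chain, was at 9.28, 8.61 and 7.03 on day 4, against 3.73, 2.08 and 3.44 on day 0 (5.23, SE 0.94, adjusted p = 0.000471). Cd74, the invariant chain, was at 9.89, 8.64 and 7.56 on day 4, against 4.74, 4.35 and 4.36 on day 0 (4.21, SE 0.74, adjusted p = 0.000384). For both, day 4 replicate 1 was the highest array and day 4 replicate 3 the lowest of its group, as for the leukocyte list.

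Of 35 cytokine and chemokine genes (40 on the array) 11 were higher and 4 lower, with a median of 1.03. Ccl2, a monocyte chemokine, was at 9.35, 8.83 and 8.62 on day 4, against 4.33, 5.17 and 4.93 on day 0 (4.12, SE 0.41, adjusted p = 5.63e-07). Cxcl2, a neutrophil chemokine, rose by 4.77 (SE 0.52, adjusted p = 1.74e-06), Ccl3 by 3.85 (SE 0.45, adjusted p = 4.31e-06) and Cxcl9, a chemokine induced by interferon gamma, by 3.83 (SE 0.46, adjusted p = 5.95e-06). Ccl19, a lymphoid homing chemokine, had the largest fall of all, at 4.27, 4.54 and 4.00 on day 4, against 10.60, 10.69 and 9.67 on day 0 (-6.05, SE 0.95, adjusted p = 0.000107). Ccl11, eotaxin, fell 12.5-fold (-3.64, SE 0.58, adjusted p = 0.000124), and Cxcl12, the ligand of Cxcr4, fell 3.54-fold (-1.82, SE 0.39, adjusted p = 0.00234). Of 30 genes that respond to interferon 9 rose and 0 fell, with a median of 0.72, among them Cxcl10 (3.39, SE 0.34, adjusted p = 6.22e-07), the regulator Irf7 (2.58, SE 0.52, adjusted p = 0.00139) and the immunoproteasome subunit Psmb9 (2.33, SE 0.31, adjusted p = 1.57e-05). Of 13 complement genes 3 were higher and 4 lower, with a median of -0.18. C3ar1, a receptor of myeloid cells, rose (3.87, SE 0.55, adjusted p = 3.96e-05), while the inhibitor Serping1 fell 4.14-fold (-2.05, SE 0.44, adjusted p = 0.00244) and the protease C1s1 fell (-3.53, SE 0.79, adjusted p = 0.00313).

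Among the 26 mural cell markers tested (27 on the array) 19 fell and 0 rose, with a median of -2.31. Cnn1, the smooth muscle protein calponin, was at 3.95, 4.26 and 4.61 on day 4, against 8.78, 9.01 and 9.50 on day 0 (-4.82, SE 0.55, adjusted p = 3.09e-06). Myh11, the smooth muscle myosin, was at 6.42, 6.31 and 6.20 on day 4, against 10.18, 10.55 and 10.74 on day 0, an 18.1-fold fall (-4.18, SE 0.57, adjusted p = 2.26e-05). Kcnj8, a potassium channel of pericytes, fell 18.8-fold (-4.24, SE 0.50, adjusted p = 4.86e-06), and Rgs5, a pericyte regulator of G proteins, 5.1-fold (-2.35, SE 0.43, adjusted p = 0.000612). Acta2, the smooth muscle actin, was at 10.37, 10.43 and 10.44 on day 4, against 11.20, 11.42 and 11.77 on day 0, and was not called (-1.05, SE 0.49, adjusted p = 0.157). Myh11 and Acta2 stayed above the array medians on every day 4 array, while Cnn1 lay near them. Of 18 fibro-adipogenic and fibroblast markers (23 on the array) 2 were higher and 8 lower, with a median of -1.13. Differences were positive for 4 members, the largest at 1.42, and negative for 14. The members named next are all falls. Dpt, the matrix protein dermatopontin, was at 7.78, 7.00 and 8.07 on day 4, against 10.97, 10.41 and 10.42 on day 0, a 7.9-fold fall (-2.98, SE 0.54, adjusted p = 0.000468). Dcn, decorin, fell 6.34-fold (-2.66, SE 0.50, adjusted p = 0.000718), and Ebf2, a transcription factor of mesenchymal cells, fell (-3.31, SE 0.40, adjusted p = 5.75e-06).

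Of 32 endothelial markers 12 were higher and 0 lower, with a median of 1.06. Cdh5, VE-cadherin, was at 10.24, 9.57 and 9.48 on day 4, against 8.22, 8.05 and 7.89 on day 0, a 3.28-fold rise (1.71, SE 0.33, adjusted p = 0.000919). Aplnr, the apelin receptor of sprouting vessels, was at 8.55, 8.24 and 7.44 on day 4, against 4.41, 4.48 and 4.86 on day 0 (3.49, SE 0.49, adjusted p = 3.13e-05). Pecam1, which encodes the CD31 that the gate excludes, was at 9.60, 8.77 and 8.92 on day 4, against 8.21, 7.72 and 7.19 on day 0 (1.39, SE 0.38, adjusted p = 0.0129), a call that was lost without day 4 replicate 1 (1.13, adjusted p = 0.0707) or day 0 replicate 3 (1.13, adjusted p = 0.0745). Of 11 Schwann and glial markers (14 on the array) 0 were higher and 3 lower (27.3% called), with a median of -0.55. Among them Pmp22, a myelin protein, fell 3.94-fold (-1.98, SE 0.31, adjusted p = 0.000124). The 3 lower Schwann markers were 1 without day 0 replicate 1. Of 7 tenocyte markers (10 on the array) 1 was higher and 0 lower (14.3%, near the 12% of all genes), with a median of 0.17. None of 4 erythroid markers (5 on the array) was called by limma, with a median of 0.46, and 0 had an unadjusted p under 0.05. Hbb-b1, a beta globin, was at 6.35, 10.10 and 10.25 on day 4, against 8.28, 9.23 and 7.53 on day 0.

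The 12 largest falls with no overlap included genes on none of the lists. Olfr78, an olfactory receptor gene that vessels also express, was at 2.95, 2.77 and 2.72 on day 4, against 6.10, 7.75 and 8.36 on day 0 (-4.59, SE 0.38, adjusted p = 3.35e-08). Olfr558, a second gene of that kind, was at 5.48, 4.22 and 5.13 on day 4, against 8.33, 9.86 and 9.99 on day 0 (-4.45, SE 0.72, adjusted p = 0.000146). Plxdc1, a transmembrane protein of vessels, was at 4.67, 4.71 and 3.83 on day 4, against 6.59, 10.12 and 9.88 on day 0 (-4.46, SE 0.69, adjusted p = 9.22e-05). For these 3 genes day 0 replicate 1, which also had the lowest pericyte list, was the lowest of the day 0 arrays. Ano1, a calcium-activated chloride channel, fell by 4.42 (SE 0.55, adjusted p = 8.7e-06), Gucy1b1, a subunit of the nitric oxide receptor, by 4.36 (SE 0.55, adjusted p = 1.06e-05), and S1pr3, a sphingosine phosphate receptor, by 4.31 (SE 0.59, adjusted p = 2.73e-05).

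To ask which changes differed from those of the endothelial cells of the same days, the satellite response, day 4 minus day 0, was set against the endothelial one in an interaction contrast. Of 14064 genes 596 were called (4.24%): 281 (2%) had a higher response in satellite cells and 315 (2.24%) a lower one. Mymk differed by 4.45 between the responses (SE 0.50, adjusted p = 1.09e-05), since its satellite response was 5.10 and its endothelial one 0.65. Myog differed by 3.81, Chrng by 3.37 and Ttn by 3.88 in the same direction, and all 3 were called. Cdkn1c had opposite responses, 2.42 in satellite cells and -2.04 in endothelial cells, both called, and the responses differed by 4.46 (SE 0.37, adjusted p = 2.33e-07). Cdkn1a differed by 2.67, with a response of 2.72 in satellite cells and 0.05 in endothelial cells. Tgfb1 did likewise, at 2.87 in satellite cells and -0.08 in endothelial cells, a difference of 2.94.

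Of 52 mitosis genes 1 had a higher and 0 a lower satellite response, and of 35 leukocyte markers limma called 0 in either direction (1 had an unadjusted p under 0.05), with median differences of 0.13 and 0.44. The shares called, 1.92% of the mitosis genes and 0% of the leukocyte markers, lay below the 4.24% called among all genes. Mki67 rose by 3.08 in satellite cells and by 3.28 in endothelial cells, and Ctss by 6.82 in satellite cells and by 5.84 in endothelial cells, without a called difference. Myc was the reverse of the muscle genes: it moved by 0.44 in satellite cells, against 3.43 in endothelial cells, a difference of -3.00 (SE 0.43, adjusted p = 0.000239). Il6, with 1.16 in satellite cells and 4.73 in endothelial cells, and Mmp14, with 0.25 in satellite cells and 3.23 in endothelial cells, had called differences of -3.57 and -2.98. Endothelial cells had 750 called genes (5.33%), 438 higher (3.11%) and 312 lower (2.22%). Of the genes called higher on day 4, 226 were called in both cell types, which is 24.6% of the satellite and 51.6% of the endothelial genes. Of those called lower, 94 were shared, 12.2% of the satellite and 30.1% of the endothelial genes.

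**Figure D5:**
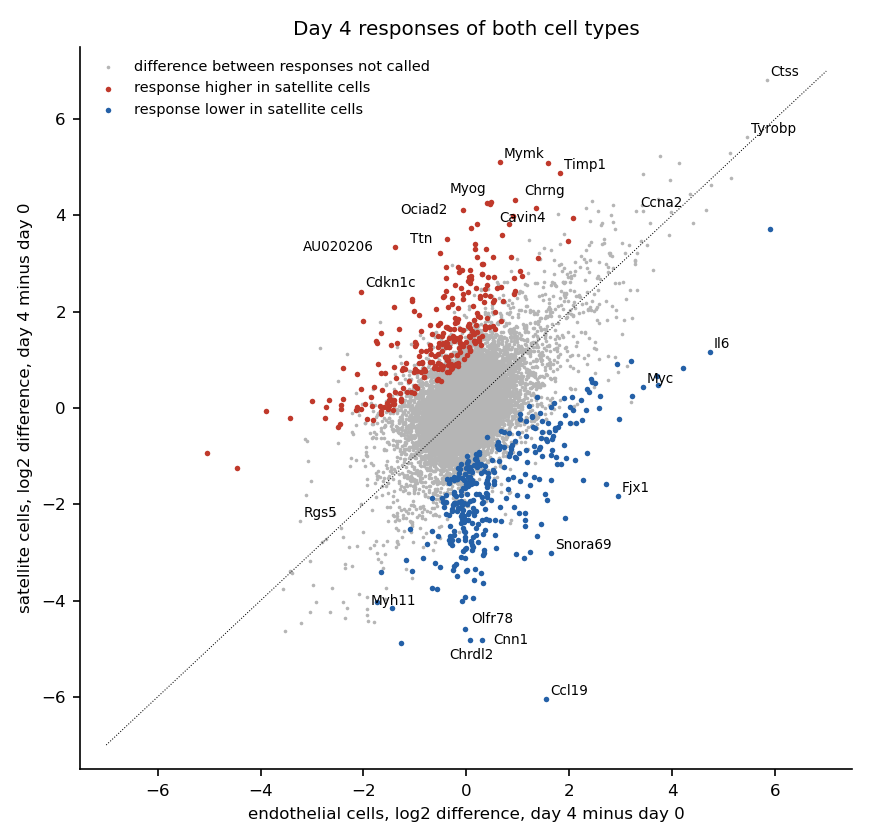
Each point is a gene tested, placed by its log2 difference, day 4 minus day 0, in endothelial cells (horizontal axis) and in satellite cells (vertical axis); the dotted line marks equal responses. The 281 genes with a higher response in satellite cells are red and the 315 with a lower one blue; Mymk and Cdkn1c lie above the line, Ccl19 and Myc below it, and Ctss and Ccna2 near it.

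Day 4 was also placed between days 2 and 8 by testing those differences directly. Against day 2, 1483 genes were called (10.5%), 673 higher on day 4 (4.79%) and 810 lower (5.76%). Pax7 averaged 9.28 (day 0), 5.17 (day 2), 8.46 (day 4) and 8.13 (day 8), and day 4 lay above day 2 by 3.28 (SE 0.37, adjusted p = 3.04e-06). Myf5 was higher on day 4 than on day 2 by 2.93, Fgfr4 by 4.12 and Cdh15 by 3.82. The largest differences with no overlap were Capn6, a calpain-like protein, at 6.02, Actc1 at 5.58, C1qtnf3, a secreted C1q-like protein, at 5.30, Mymk at 5.17 and Tnnt2 at 5.13. Of 24 myogenic regulators 13 were higher on day 4 than on day 2 and 0 lower, and of 31 contractile genes 18 were higher and 0 lower. The leukocyte list averaged 9.95, 8.20 and 9.87 on day 2 replicates 1, 2 and 3, against 8.10, 7.40 and 6.80 on day 4. Of its 35 members 16 were lower on day 4 than on day 2 and 0 higher. The part of such other cells in the differences between these days was not tested. Lower on day 4 than on day 2 were S100a8 (-6.38), the formyl peptide receptor Fpr2 (-6.29), S100a9 (-6.22), the lectin Clec4e (-5.81) and Ptgs2, a prostaglandin synthase (-5.80). Of 11 neutrophil markers 10 were lower on day 4 than on day 2, and of 30 interferon genes 19. Of 52 mitosis genes 3 were higher on day 4 than on day 2 and 0 lower, and Mki67 averaged 7.02 (day 2), 7.76 (day 4) and 7.89 (day 8).

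Between day 4 and day 8 fewer genes were called, 236 in all (1.68%), with 163 higher on day 8 (1.16%) and 73 lower (0.519%). Chrng averaged 4.62 (day 0), 4.78 (day 2), 8.95 (day 4) and 5.87 (day 8), and day 8 lay below day 4 (-3.08, SE 0.30, adjusted p = 6.16e-06). On day 8 the level of Tnnc1 was below day 4 (-2.87), as were those of Chrnd (-2.64) and R3hdml, a protein with a peptidase inhibitor-like domain (-3.63). R3hdml was at 7.39, 7.18 and 7.74 on day 4, against 4.28, 3.82 and 4.29 on day 0. The microRNA gene Mir3109 was lower on day 8 than on day 4 (-2.88), and so was Gal, the neuropeptide galanin (-2.92). Higher on day 8 than on day 4 were Olfr558 (3.69), Olfr78 (3.61) and Ano1 (3.15), together with the adult muscle genes Mybpc2 (3.51) and Cox8b (3.30). The calls of Mybpc2 and Cox8b were lost without day 8 replicate 2 (2.92, adjusted p = 0.0665, and 2.84, adjusted p = 0.126) and without day 8 replicate 3 (2.83, adjusted p = 0.0627, and 2.71, adjusted p = 0.129). The Cox8b call was also lost without day 4 replicate 1 (3.14, adjusted p = 0.0757) or day 4 replicate 3 (3.16, adjusted p = 0.07). Among the 26 mural cell markers 9 were higher on day 8 than on day 4 and 0 lower.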

How the data were processed

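RNA of 24 samples was measured on single-colour Affymetrix MoGene-2.0-st arrays, 3 in each of 8 groups. The authors deposited log2 expression values per probe set made with RMA, per the submitters' processing notes; its version and the annotation build are not given in the sources used here. Cell type and day were taken from the sample titles, since the cell type and time point fields disagree with them. The 24479 probe sets were named from the platform annotation, which gave a symbol to 23281 and none to 1198. The brighter probe set stood for a gene, and genes that exceeded the median of the array on 3 or more arrays were kept, which left 14064.

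One limma 3.58.1 fit (R 4.3.3) held 8 group means over 24 arrays, with 16 residual degrees of freedom, empirical Bayes moderation and Benjamini-Hochberg adjustment over all genes tested. It was tested on simulated data. Nothing beyond the titles says that replicates came from separate animals, so p-values measure the spread between these samples. Only 3 arrays per group limit the precision. Folds are given only where both days lay well above the array medians. Promoters were searched with Python 3.11.15 and plots drawn with matplotlib 3.10.9.

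Genes were named mainly by a rule, and not every gene that the rule took appears in the text. It took the 12 largest rises and 12 largest falls with no overlap, and fixed key members of 37 gene lists. It also took up to 5 called members of each list, the 6 largest response differences in each direction, and 5 in each direction for the other days. Col1a1, Fst, Fgfr1, Kdr and Scx are among those left out. The call of each between days 4 and 0 was lost when certain single arrays were left out. The comparison and the lists were chosen with earlier results of these data known. Same-numbered satellite arrays of days 4 and 0 had deviations from their group means correlated at 0.098, 0.0193 and 0.013. Same-numbered satellite and endothelial arrays had 0.138, -0.0123 and 0.110 on day 4, and -0.0569, 0.08 and -0.0649 on day 0. With 3 arrays per group such values cannot settle whether the numbers pair samples, and the main fit used no pairing. Alternatives covered the filter, the choice of probe set, the array scaling, weights, the samples in the fit, the threshold, a replicate block and each array left out. The mean of a gene's probe sets gave the main counts unchanged in every comparison, so that setting adds no check of stability.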

Additional observations from a re-analysis of the deposited data

Results flagged for a closer look

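The responses of satellite and endothelial cells between days 4 and 0 differed by the interaction test for 12 genes named by the rule on the largest differences. Those with the higher satellite response were AU020206 (4.73), an unannotated transcript, Cdkn1c (4.46), Mymk (4.45), Ociad2 (4.17), Ttn (3.88) and Cavin4 (3.85), a caveola protein of muscle. AU020206 moved in opposite directions, by 3.34 in satellite cells and by -1.39 in endothelial cells. Those with the lower satellite response were Ccl19 (-7.6), Cnn1 (-5.14), Chrdl2 (-4.9), Fjx1 (-4.77), the small nucleolar RNA Snora69 (-4.66) and Olfr78 (-4.56). Fjx1, a secreted protein related to Drosophila four-jointed, had a response of -1.82 in satellite cells and of 2.94 in endothelial cells.

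Among 624 probe sets with no symbol that passed the filter, 69 were called in satellite cells between days 4 and 0, with 34 higher and 35 lower on day 4. They are outside every list and are not named.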

How the results depend on the processing

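Between days 4 and 0 the counts of 918 higher and 769 lower genes stayed within 1.5 times in every setting run, 778 to 926 higher and 660 to 824 lower with each array left out, and 834 and 646 with the 6 arrays alone. Of 184 called genes that the naming rule took, 151 kept their call in every setting, 31 lost it in at least 1 leave-one-out, and 0 reversed. The response difference (281 and 315) gave 508 and 539 with array quality weights, 119 and 158 at an adjusted p under 0.01, and 204 to 286 and 229 to 362 with an array left out. Day 8 against day 4 (163 and 73) gave 287 and 125 with weights, 72 and 33 at 0.01, 53 and 28 with satellite arrays alone, and 69 to 280 and 41 to 88 with an array left out. It had 92 higher genes without day 4 replicate 1, 280 without day 8 replicate 1, 69 and 41 without day 8 replicate 2, and 83 and 47 without day 8 replicate 3. Day 4 against day 2 (673 and 810) gave 520 lower at 0.01, and 525 to 880 and 537 to 1197 with an array left out, 537 being without day 2 replicate 1. The replicate block gave 931 and 785 for day 4 against day 0 and 273 and 318 for the response difference. A random block of same day and number gave 921 and 770, and 303 and 341. The cause of these shifts was not tested. Repeated quantile normalization gave 943 and 919 for day 4 against day 0, so that 50.6% of called genes were higher, against 54.4% in the values as reported. Endothelial markers higher on day 4 were 5 in place of 12 with satellite arrays alone. Genes near the array medians have little signal over background, which limits their differences.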

Other observations

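Most small RNA genes on the array were not called between days 4 and 0, and the few called were mostly lower on day 4. Among all genes tested 12% were called. Of 92 small nucleolar RNA genes tested 1 was higher and 9 lower (10.9% called), and of 192 microRNA genes 1 was higher and 6 lower (3.65%), beside 893 higher and 723 lower of 12786 protein-coding genes (12.6%). The following were named after their values were seen. Snord89 was at 8.93, 8.15 and 7.79 on day 4, against 10.97, 10.61 and 10.99 on day 0 (difference -2.57, SE 0.53, adjusted p = 0.00175). Snord32a was at 9.95, 9.01 and 8.52 on day 4, against 11.37, 10.86 and 11.47 on day 0 (-2.07, SE 0.32, adjusted p = 8.6e-05). Neither overlapped between the days, and 13.4% of all genes tested likewise lay lower without overlap. Mir3109 was the microRNA gene called higher, at 6.64, 6.98 and 5.97 on day 4, against 4.35, 2.80 and 3.69 on day 0 (2.92, SE 0.57, adjusted p = 0.001). These probe sets may read host transcripts or precursors, and mature small RNA was not measured. Of 649 long noncoding RNA genes 14 were higher and 25 lower on day 4 (6.01%).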
